A study of Homo sapiens with 44 samples.

Results

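IRF2BP2 was found at 484 sites of the human genome both in vehicle-treated and in glucocorticoid-treated HEK293-GR cells, and these shared sites are described here. They were chosen by position alone, as the peaks of the deposited vehicle list that overlapped a peak of the deposited dexamethasone (dex) list by at least 1 base on build hg19. The vehicle list held 1108 peaks and the dex list 1400, so the 484 shared sites made up 43.7% of the vehicle list and 34.6% of the dex list. The other 624 vehicle peaks and 916 dex peaks serve below as the comparison. Each site was tied to the gene with the nearest transcription start, measured from the centre of the vehicle peak over all transcripts of the A549 table.

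The chromatin immunoprecipitation (ChIP) used an antibody against IRF2BP2 in HEK293-GR, a kidney-derived HEK293 line of isogenic Flp-In origin that expresses the glucocorticoid receptor at all times, so receptor levels in this line are those of a transgene. Cells were kept in steroid-depleted medium for 48 h and then given ethanol vehicle or 100 nM dex for 1 h, with 2 ChIP samples per condition from which the authors made 1 peak list each. RNA came from HEK293-GR cells transfected in the same kind of medium with 20 nM of a small interfering RNA pool against IRF2BP2 (siIRF2BP2) or a non-targeting pool (siNON) for 72 h and treated with vehicle or 100 nM dex for 6 h. The labels number 4 samples per HEK293-GR RNA group, of which 3 per group have a column and were used. RNA of A549, a lung adenocarcinoma line, came from cells given the same pools and, for 6 h, vehicle, 100 nM dex, 10 ng/ml tumour necrosis factor (TNF) or both, with 3 samples per group that the authors pooled into 1 column. ChIP and RNA were thus read at different times after dex, and nothing in the labels says whether replicates came from separate cultures, so p-values measure the spread between these samples.

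IRF2BP2 is a nuclear protein with a zinc finger and a RING domain, first described as a corepressor that partners the interferon regulatory factor IRF2. It acts as a cofactor that is recruited to DNA through partners, among them VGLL4, a cofactor of the TEAD factors of the Hippo pathway. Dex is a synthetic glucocorticoid that sends the glucocorticoid receptor to DNA, where the receptor raises some genes and lowers others.

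At several cell cycle and transcription factor genes the shared peak lay at the promoter. The 250 bases before the start of 5 of these genes are shown, since their expression is described below. The sequences are from RefSeq (GRCh38.p14), 5′ to 3′ on the strand of the gene. Of the 41 genes with a shared peak within 1 kb of a start, 29 had a RefSeq promoter, and 10 of those had the same start as the hg19 transcript (length from start to gene end within 100 bases) and a window reached by the peak. Capitals mark matches, on either strand, to 12 short motifs.
CDKN1A (chr6:36678464-36678713, plus strand): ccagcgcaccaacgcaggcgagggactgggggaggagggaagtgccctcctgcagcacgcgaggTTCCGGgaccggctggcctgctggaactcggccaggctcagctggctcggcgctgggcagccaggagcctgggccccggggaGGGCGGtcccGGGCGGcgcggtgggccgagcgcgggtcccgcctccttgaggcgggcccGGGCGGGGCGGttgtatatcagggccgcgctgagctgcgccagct
PLK3 (chr1:44800127-44800376, plus strand): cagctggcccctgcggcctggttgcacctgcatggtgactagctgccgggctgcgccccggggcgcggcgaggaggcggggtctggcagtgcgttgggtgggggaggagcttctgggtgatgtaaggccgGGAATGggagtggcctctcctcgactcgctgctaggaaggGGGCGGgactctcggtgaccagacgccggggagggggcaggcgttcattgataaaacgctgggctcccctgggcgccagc
STAT3 (chr17:42388443-42388692, minus strand): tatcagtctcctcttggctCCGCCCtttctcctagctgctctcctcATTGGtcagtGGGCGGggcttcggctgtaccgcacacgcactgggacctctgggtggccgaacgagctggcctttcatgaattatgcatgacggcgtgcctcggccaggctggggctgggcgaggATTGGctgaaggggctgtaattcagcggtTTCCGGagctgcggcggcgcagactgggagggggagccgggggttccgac
HOXA9 (chr7:27165538-27165787, minus strand): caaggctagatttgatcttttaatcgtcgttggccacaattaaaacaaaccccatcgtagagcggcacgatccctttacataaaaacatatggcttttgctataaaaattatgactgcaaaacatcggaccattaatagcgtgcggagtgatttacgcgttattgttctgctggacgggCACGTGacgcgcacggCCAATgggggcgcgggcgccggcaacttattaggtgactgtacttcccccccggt
NR4A3 (chr9:99821635-99821884, plus strand): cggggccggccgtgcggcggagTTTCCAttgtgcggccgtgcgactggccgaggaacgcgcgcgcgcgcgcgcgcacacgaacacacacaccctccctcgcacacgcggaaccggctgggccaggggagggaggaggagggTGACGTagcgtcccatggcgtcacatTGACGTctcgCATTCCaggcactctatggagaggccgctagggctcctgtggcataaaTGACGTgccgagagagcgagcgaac

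CDKN1A, PLK3, STAT3 and HOXA9 followed the order of named genes, and NR4A3 was added after its values were seen. The peak covered the whole window of CDKN1A and NR4A3, but only 63, 92 and 81 of the 250 bases in PLK3, STAT3 and HOXA9, at the end far from the start. In CDKN1A the capitals are 4 matches to GGGCGG (bound by SP and KLF factors), the last 2 of which overlap by a base, and 1 to the ETS motif CCGGAA on the reverse strand. NR4A3 holds 3 copies of TGACGT, the core of the cyclic AMP response element, which lie 109, 83 and 25 bases before the start. HOXA9 holds the E-box CACGTG and the NF-Y motif CCAAT, 71 and 55 bases before its start. No marked match of HOXA9 or PLK3 lies in the bases under the peak. The motifs could overlap one another.

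Among the 10 promoters with the same start, GGGCGG occurred in 5 (all 27305 promoters of this length: 42.3%) and CCAAT in 5 (33.0%). The ETS motif CCGGAA occurred in 3 (14.8%) and the NFAT motif TGGAAA in 3 (18.3%). TGACGT was found in NR4A3 and DNAJB2 (7.42% of all promoters), CACGTG in HOXA9 and TBL1X (6.49%), and the TEAD motif GGAATG in NR4A3 and PLK3 (11.9%). The AP-1 motif TGANTCA was found in LURAP1L-AS1 (6.60%) and the RUNX motif TGTGGT in TBL1X (10.9%). The glucocorticoid receptor palindrome core ACANNNTGT (4.68%), the GATA motif AGATAA (9.37%) and the YY1 motif AGATGGC (3.40%) had no match in the 10. With 10 promoters these counts describe the windows only, and they include matches outside the bases under the peak. The median GC content of the 10 was 60.4%, and that of all promoters was 58.0%.

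The 484 sites paired 1 to 1 between the lists. Every vehicle peak was 343 bases wide and every dex peak 332, and the shared pairs overlapped by a median of 303 bases, from 43 to 332. In 474 pairs the overlap reached 50% of both peaks, so the number depended little on the overlap asked for. The centres of a pair lay a median of 35 bases apart. Just inside the rule were a site 10.9 kb upstream of WNT16 (chr7:120954309-120954651), with 43 bases of overlap, and a site nearest VGLL4 (chr3:11537498-11537840), with 74. Just outside were a vehicle peak nearest SNTG1, 9 bases from the closest dex peak, and one nearest LIF (chr22:30592163-30592505), 42 bases from it.

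Shared sites stood near the top of both lists. Of the first 100 vehicle peaks 83 were shared, of the fifth 100 it was 37, and of lines 1001 to 1100 it was 19. In the dex list the count went from 73 of the first 100 to 17 of the last 100. The files carry a score of 1 for every peak and do not say how the lines were ordered, so the position is given only as a description. Over the 484 pairs the line numbers in the lists had a Spearman correlation of 0.51. The first line of each list was the same site on chromosome 21 (chr21:9827062-9827404), 1.03 kb from MIR3687-1, and the second line of each was the neighbouring site at the start of that microRNA gene.

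**Figure D1:**
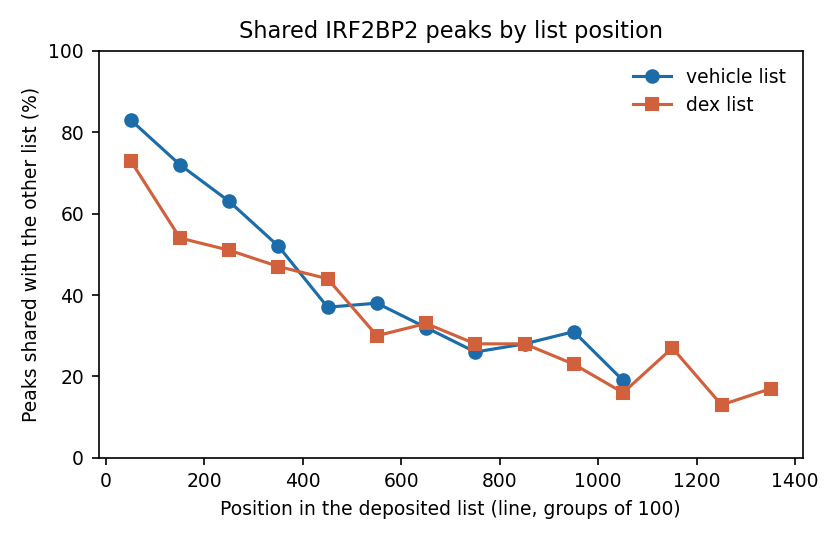
Share of peaks, in percent, that overlap a peak of the other list, for consecutive groups of 100 lines of the deposited vehicle list (circles) and dex list (squares). Both lines fall along the list, from 83% to 19% in the vehicle list and from 73% to 17% in the dex list.

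The peak at IRF2BP2 itself was not among the shared sites. Lines 3 and 5 of the vehicle list lay in this gene, 365 and 2020 bases from its nearest start (chr1:234744736-234745078 and chr1:234743081-234743423), and no dex peak overlapped either. Line 4, the next shared site, lay 5.08 kb from a start of ARID3B, a DNA-binding protein gene, and line 6 lay 1.58 kb upstream of WDR74.

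Most shared sites lay away from promoters. Within 1 kb of a start there were 41 (8.47%), within 10 kb 114 (23.6%) and within 50 kb 280 (57.9%), while 117 (24.2%) were over 100 kb away. The median distance was 32.1 kb. Vehicle-only peaks were within 1 kb in 8.01% and dex-only peaks in 2.95%, with median distances of 43.9 and 39.5 kb. Peaks are not replicates of a condition, so these shares were set side by side without a test. Of the shared sites 257 (53.1%) lay inside a transcript.

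**Figure D2:**
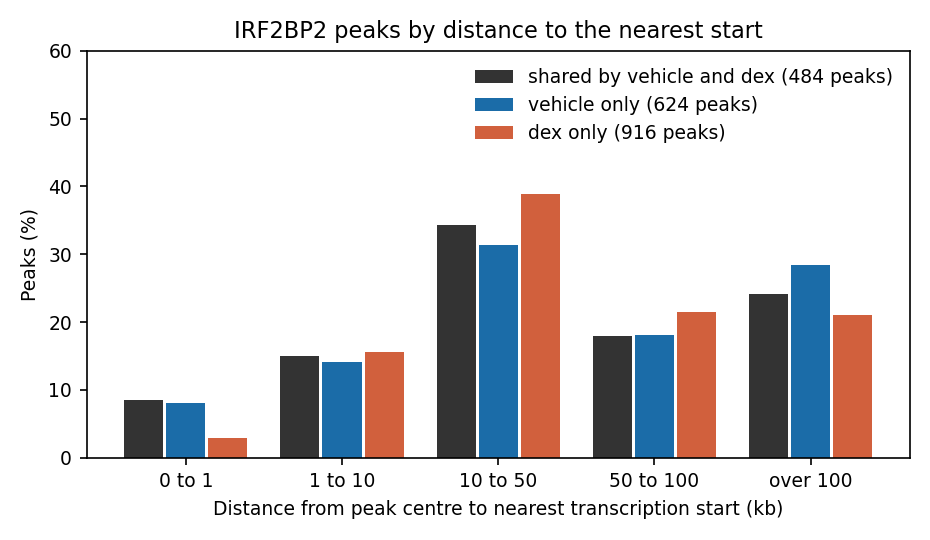
Percent of the 484 shared, 624 vehicle-only and 916 dex-only IRF2BP2 peaks by distance in kb from the peak centre to the nearest transcription start. Shared and vehicle-only peaks lie within 1 kb in 8.47% and 8.01%, dex-only peaks in 2.95%.

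The 41 promoter sites lay at 31 protein-coding genes, 4 genes of small nuclear RNAs and 6 other non-coding genes. Transcription factor genes among them were MAF and ATF3 (basic leucine zipper factors), CREB5 (a cyclic AMP response factor), TFAP4, TEAD1, STAT3, BCL6 (a zinc finger repressor), HOXA9 (a homeobox factor), HES4 and NR4A3 (an orphan nuclear receptor), which were not counted against a list of such genes. Regulators of the cell cycle and of p53 were CDKN1A, which encodes the inhibitor p21, MDM2, the ubiquitin ligase of p53, and the kinase PLK3. Signal inhibitors were DUSP10, a phosphatase of stress kinases, SPRED2, which damps Ras signalling, and RCAN1, which inhibits calcineurin. The closest start was that of RCAN1 (chr21:35899133-35899475), 5 bases from the peak centre, followed by TEAD1 (chr11:12695814-12696156) at 15 bases.

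Of all 484 sites, 353 had a protein-coding nearest gene, 119 a long or short non-coding RNA gene, 5 a pseudogene, 4 a small nuclear and 3 a small nucleolar RNA gene. Among the first 12 lines of the vehicle list the nearest genes included MAF, TFAP4, RNU11 and LINC01132, each with a start within 1 kb, and ZSWIM6, whose start was 76.5 kb away. The longest distance was 1296 kb, at LPHN2.

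The small nuclear RNA genes were RNU11, RNU12 and RNU4ATAC, which encode RNAs of the minor spliceosome, and RNVU1-8, a variant of U1. Their starts were 25, 42, 79 and 41 bases from the peak centre. Neither the vehicle-only nor the dex-only peaks had such a gene within 1 kb. The A549 table lists few of these genes, so the order of genes in RefSeq (GRCh38) was used, after this was seen. It was asked how many tied genes were a small nuclear RNA gene or had one among the 3 neighbours on each side. This held for 18 of 367 matched genes of shared sites (4.90%), for 1.43% of genes of vehicle-only and 1.23% of dex-only peaks, and for 1.19% of all genes. Among the first 50 shared sites it held for 8 of 39 genes (20.5%). These 8 include RNU11 itself, so the counts are not separate from the small nuclear RNA genes above. WDR74 lies beside RNU2-2, PARP16 beside RNU5A-1 and RNU5B-1, KIF2C beside RNU5D-1 and RNU5F-1, SIRT4 beside RNU4-1 and RNU4-2, and SKOR1 beside RNU6-1. These sites stood at lines 6, 20, 26, 16 and 28 of the vehicle list. Gene order says nothing of the distance between the peak and the RNA gene. The RNA libraries were made from polyadenylated RNA and give no reliable level of these RNAs, which lack a poly(A) tail.

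Some genes drew several shared sites. The 484 sites fell to 425 nearest genes, of which 385 had 1 site, 34 had 2 and 6 had 3 or more. FIRRE, a long non-coding RNA gene of the X chromosome with many local repeats, had 14, all inside the gene and spread over 118 kb (chrX:130838186-130956567), with 4 more vehicle-only and 2 more dex-only peaks. The earliest of the 14 stood at line 15 in both lists. LOC100507420 had 5 shared sites, and ATF3, RAD51B (a homologous recombination gene), TEX14 and LOC101927460 had 3 each. The 3 sites of ATF3 lay 61, 6252 and 12245 bases from its nearest start.

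Genes of known pathways near shared sites were counted list by list. Of 36 glucocorticoid receptor induced genes, such as PER1 and KLF9, none was nearest to a shared site within 50 kb, while 2 had a vehicle-only and 12 a dex-only peak. For comparison, 260 of all 25689 genes were tied to a shared site, 316 to a vehicle-only and 495 to a dex-only peak. Of 19 p53 targets 3 had a shared site, MDM2, CDKN1A and PLK3, each within 1 kb, and 1 had a dex-only peak. Of 26 YAP and TEAD genes 4 had a shared site: TEAD1 and AMOTL2 within 1 kb, FJX1 at 3.58 kb and PTPN14 at 30.9 kb. None of 25 TNF and NF-kB induced genes, 23 cholesterol synthesis genes or 25 replication and mitosis genes had one. ATF3 was the single member on the immediate early (25 genes) and the unfolded protein and amino acid stress lists (19 genes). Of 19 IRF2BP family and partner genes, TEAD1 had a shared site within 1 kb. Of the blood, endothelial and fibroblast markers (11 genes), CDH5 had one, and of the 7 A549 markers none had. These lists were set with earlier results of these data known, so the counts are a description.

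The HEK293-GR RNA libraries held 18.2 M to 28.5 M tags each. IRF2BP2 had 22.9 ± 2.41 FPKM (fragments per kilobase of transcript, scaled to the library's total; SD, n = 3) with siNON and 12.7 ± 0.960 with siIRF2BP2 under vehicle, and 20.0 ± 0.605 against 10.4 ± 0.752 under dex, so the knockdown left over 50% of the transcript. All 13 HEK293 markers reached 1 FPKM, 1 of 7 A549 markers did, and of 11 blood, endothelial and fibroblast markers COL1A1 and HBA1 did. Of the 260 genes tied to a shared site within 50 kb, 195 had enough reads to be tested, 31 of them with a site within 1 kb. Their median level with siNON under vehicle was 8.47 FPKM, and that of all 15593 genes tested was 7.16 FPKM. Genes without enough reads drop out here, so the counts below cover the 195 and not all members. In bulk RNA, fewer cells of a type and less RNA per cell cannot be told apart.

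Of the 195 tied genes 50 fell with dex in siNON cells (25.6%) and 26 rose (13.3%), where 9.82% of all genes tested fell and 10.9% rose (limma, adjusted p under 0.05). The median change was -0.067 on the log2 scale, against 0.022 for all genes. After IRF2BP2 knockdown 35 fell (17.9%) and 12 rose (6.15%), beside 4.59% and 5.86% of all genes. These contrasts have no library in common, and 33 genes fell and 10 rose in both, together 22.1% of the 195. Over all genes tested 573 fell and 803 rose in both, together 8.82%. Among the 31 genes with a site within 1 kb, 11 fell and 7 rose with siNON, and 8 fell and 3 rose with siIRF2BP2. More genes fell than rose for vehicle-only peaks too, with 77 of 229 lower (33.6%) and 26 higher (11.4%) with siNON. For dex-only peaks the counts went the other way, with 121 of 372 genes higher (32.5%) and 44 lower (11.8%). Membership of a list had used dex in the ChIP but no RNA value. These sets differ in level and share 16 genes (shared and vehicle-only) and 29 genes (shared and dex-only), and the difference between them was not tested.

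**Figure D3:**
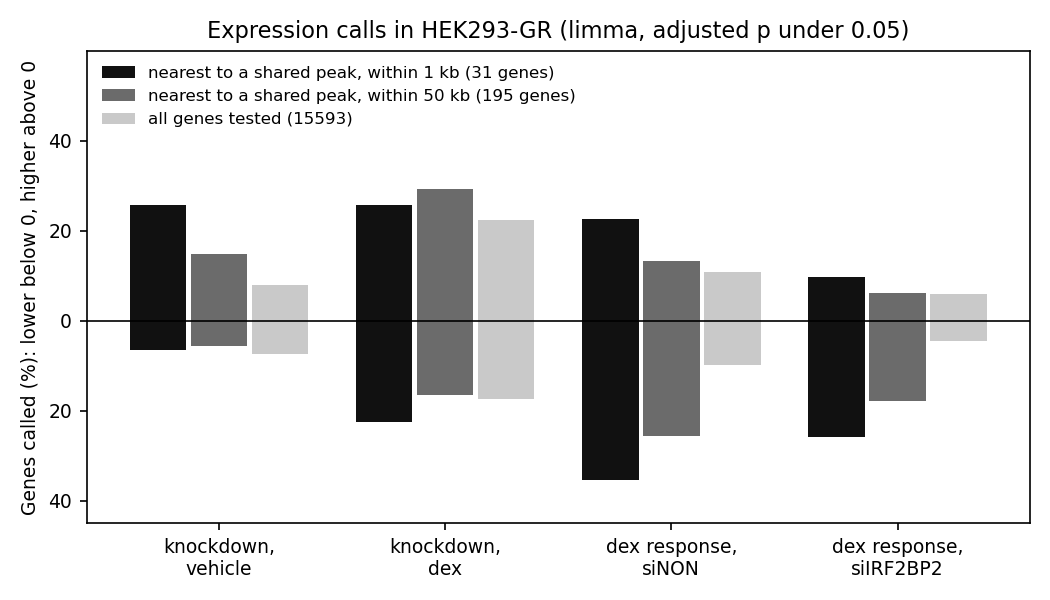
Percent of genes called higher (above 0) or lower (below 0) in 4 comparisons of HEK293-GR libraries, for genes with a shared IRF2BP2 peak within 1 kb (black), within 50 kb (grey) and all genes tested (light grey). With dex, the share of lower genes among the 195 is 25.6% with siNON and 17.9% with siIRF2BP2, beside 9.82% and 4.59% of all genes.

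Distance to the start did not order these shares in 1 direction. With dex and siNON, 35.5% of 31 genes within 1 kb fell, 27.8% of 54 genes at 1 to 10 kb and 21.8% of 110 genes at 10 to 50 kb. Of 107 genes whose nearest site lay over 50 kb away, and which are not among the 195, 37.4% fell and 6.54% rose. For the knockdown under vehicle the share of higher genes went from 25.8% to 16.7% and 10.9%, and was 23.4% beyond 50 kb. The bins hold few genes, and their differences were not tested.

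HOXA9, ID4, MAF and ATF3 were among the genes that fell with dex. HOXA9 stood at 39.9, 42.6 and 39.2 FPKM with siNON and vehicle and at 17.4, 16.6 and 16.3 with dex. It stood at 38.8, 34.0 and 38.4 with siIRF2BP2 and vehicle and at 18.3, 18.0 and 16.7 with dex. The vehicle and dex libraries did not overlap with either pool, and the log2 fold changes were -1.27 (SE 0.071, adjusted p = 1.47e-09) and -1.06 (SE 0.071, adjusted p = 1.95e-08). ID4, an inhibitor of basic helix-loop-helix factors with a shared site 32.5 kb upstream, fell the most of the 195, from 15.7, 15.3 and 17.1 to 3.83, 4.29 and 3.19 FPKM with siNON, a log2 fold change of -2.07 (SE 0.10, adjusted p = 2.02e-10). Its relative ID3, with a site 2.60 kb away, fell by 0.85 with siNON and by 1.13 with siIRF2BP2 on the same scale. MAF fell from 2.46, 2.30 and 2.25 to 1.01, 1.06 and 1.14 FPKM, a change of -1.06 (SE 0.12, adjusted p = 4.53e-06).

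ATF3, which a range of stresses induce, was lower in all dex than in all vehicle libraries with either pool. It stood at 22.9, 26.9 and 20.0 FPKM with siNON and vehicle and at 13.0, 12.7 and 14.1 with dex, a log2 fold change of -0.80 (SE 0.10, adjusted p = 1.97e-05). NR4A3, with TGACGT in its promoter, was low throughout, at 0.650, 0.374 and 0.536 FPKM with vehicle and 0.243, 0.175 and 0.251 with dex, and changed by -0.92 (SE 0.19, adjusted p = 0.00199) with siNON and -0.94 (SE 0.19, adjusted p = 0.00224) with siIRF2BP2. At such levels the added 0.1 FPKM shrinks the fold change. SCHIP1 (site at 10.1 kb), FAT3, a protocadherin gene, and the bradykinin receptor gene BDKRB2 changed by -1.25, -1.03 and -0.61 with siNON. HMOX1, which encodes haem oxygenase 1, fell from 14.5 ± 1.36 to 7.67 ± 1.03 FPKM with siNON and from 18.3 ± 0.767 to 7.98 ± 0.308 with siIRF2BP2.

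A smaller group rose with dex. WNT16, a WNT ligand gene whose site has the smallest overlap of the 484, went from 1.39, 1.90 and 1.54 to 15.6, 15.5 and 14.4 FPKM with siNON and from 1.99, 1.95 and 2.01 to 16.6, 16.6 and 15.9 with siIRF2BP2. The changes were 3.17 (SE 0.10, adjusted p = 1.24e-12) and 2.98 (SE 0.10, adjusted p = 3.48e-12), the highest of the tied genes. The muscle gene MYOM2 went from 20.2 ± 3.09 to 68.0 ± 2.28 FPKM with siNON, a change of 1.76 (adjusted p = 2.48e-09). BCL6 went from 3.61, 3.10 and 2.76 to 7.35, 8.46 and 8.53 FPKM with siNON and from 4.08, 4.01 and 4.79 to 8.67, 10.3 and 9.47 with siIRF2BP2, changes of 1.34 (adjusted p = 1.83e-07) and 1.12 (adjusted p = 1.97e-06). STAT3, the transcription factor of IL-6 type cytokines, rose less, from 21.6, 21.2 and 18.7 to 32.0, 31.3 and 32.8 FPKM with siNON, a change of 0.65 (adjusted p = 2.91e-05). TACC2, a centrosomal protein gene, changed by 0.68 with siNON, and NEDD9, a scaffold protein gene, and NEDD4, a ubiquitin ligase gene, by 0.82 and 0.48 with siIRF2BP2. The call of NEDD4 was lost when any of 5 single libraries was left out.

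The p53 genes with a shared promoter site did not move together. CDKN1A stood at 26.9, 26.4 and 24.1 FPKM with siNON and vehicle and at 66.6, 64.3 and 63.9 with dex, and at 29.8, 27.5 and 31.1 and 66.6, 70.0 and 54.4 with siIRF2BP2. All dex libraries lay above all vehicle libraries, with log2 fold changes of 1.33 (SE 0.091, adjusted p = 1.81e-08) and 1.10 (SE 0.091, adjusted p = 2.36e-07). MDM2 went from 13.0, 14.9 and 16.9 to 12.6, 12.6 and 11.9 FPKM with siNON, a small fall of -0.26 (SE 0.083, adjusted p = 0.0341) that was lost when any of 5 single libraries was left out. PLK3 stood at 1.83 ± 0.184 and 1.66 ± 0.268 FPKM with siNON, a change of -0.14 (adjusted p = 0.527). None of the 3 passed the test for the knockdown under vehicle or dex. Of all 19 p53 targets on the list, 6 rose and 2 fell with dex in siNON cells, where 10.9% and 9.82% of all genes tested did.

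The knockdown raised more tied genes than it lowered. Under vehicle 29 of the 195 rose (14.9%) and 11 fell (5.64%), where 8.0% and 7.48% of all genes did. Under dex 57 rose (29.2%) and 32 fell (16.4%), where 22.4% and 17.3% did, so the share of lower genes was close to that of all genes in both. The pattern was not particular to shared sites. Of 229 genes of vehicle-only peaks 14.8% rose and 7.86% fell under vehicle, and 34.9% and 12.2% under dex. Of 372 genes of dex-only peaks 11.6% rose and 7.53% fell under vehicle, and 27.2% and 16.4% under dex. The difference between these sets was not tested. The knockdowns have no library in common, and 23 of the 195 rose and 11 fell in both, together 17.4% of the tied genes and 13.0% of all. The count of 40 under vehicle rested on single libraries: 25 genes were called with siIRF2BP2 vehicle replicate 2 left out, 25 with siNON vehicle replicate 1 left out, and 69 with siNON vehicle replicate 3 left out. It was 6 when only the 2 groups compared were fitted and 19 by the FDR of the authors' deposited table. Leaving out siNON dex replicate 3 took the 89 calls under dex to 59.

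CREB5 had the largest rise with the knockdown under dex. It stood at 3.36, 3.36 and 4.16 FPKM with siNON and vehicle, at 1.10, 1.15 and 1.17 with siNON and dex, at 5.50, 6.38 and 5.68 with siIRF2BP2 and vehicle and at 3.12, 3.13 and 3.08 with siIRF2BP2 and dex. No group overlapped another, and the siNON vehicle and siIRF2BP2 dex libraries lay closest together. The knockdown changed it by 0.68 (SE 0.11, adjusted p = 0.00124) under vehicle and by 1.37 (SE 0.11, adjusted p = 1.77e-06) under dex. Dex changed it by -1.58 (SE 0.11, adjusted p = 2.68e-08) with siNON and -0.89 (SE 0.11, adjusted p = 2.91e-05) with siIRF2BP2, and the difference of the dex responses, 0.69, did not pass (adjusted p = 0.302). The knockdown contrasts and the dex contrasts share libraries, so their values are not independent.

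Other promoter genes rose with the knockdown too. PDE4D, a cyclic AMP phosphodiesterase gene, stood at 1.45, 1.53 and 1.35 FPKM with siNON and dex and at 3.07, 3.09 and 3.14 with siIRF2BP2 and dex, a change of 1.05 (SE 0.15, adjusted p = 0.00023). ATF3 rose by 0.43 under vehicle (adjusted p = 0.010) and by 0.50 (SE 0.10, adjusted p = 0.00160) under dex. KIAA0319, a neuronal membrane protein gene, rose by 0.63 (adjusted p = 0.0117) with vehicle and 0.62 (adjusted p = 0.00538) with dex. Genes with a site farther away rose as well. FIRRE, whose 14 shared sites lie at least 8.28 kb from its start, went from 1.90, 1.84 and 1.73 to 3.93, 3.44 and 3.38 FPKM under dex, a change of 0.93 (SE 0.11, adjusted p = 4.95e-05), and changed by 0.52 (adjusted p = 0.00676) under vehicle. TMEM107, a ciliary protein gene, changed by 0.60 (adjusted p = 0.000929) and ANKRD33B by 0.56 under vehicle. NKAIN2, FILIP1 and RORA, a nuclear receptor gene, changed by 1.02, 0.97 and 0.93 under dex.

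Genes that fell with the knockdown were fewer. PPL, which encodes the desmosomal plakin periplakin, went from 1.30, 1.21 and 1.40 to 0.531, 0.688 and 0.552 FPKM under dex, a change of -1.03 (SE 0.17, adjusted p = 0.0005), and changed by -0.66 (adjusted p = 0.0166) under vehicle. MYOM2 changed by -0.66 (adjusted p = 0.000868) with vehicle and -0.41 (adjusted p = 0.00657) with dex. HES4, a Notch-responsive repressor with a site 781 bases upstream, changed by -0.64 (adjusted p = 0.0263) and -0.57 (adjusted p = 0.0206). Its siIRF2BP2 vehicle libraries spread from 13.4 to 23.6 FPKM and overlapped those with siNON. SLC2A8, a glucose transporter gene, DBNDD1, CFL2, a cofilin gene, and OTUD1, a deubiquitinase gene, changed by -0.54, -0.37, -0.47 and -0.40 under vehicle. PRR7 and BDKRB2 changed by -0.61 (SE 0.23, adjusted p = 0.0474) and -0.54 (SE 0.15, adjusted p = 0.0104) under dex. The call of PRR7 was lost with other scaling, without the filter and with a pseudocount of 1. It was also lost when single libraries were left out, among them each siNON dex library. The call of BDKRB2 was lost without siIRF2BP2 dex replicate 1 or siNON dex replicate 2. The calls of AMOTL2, CREB5, TMEM107, MYOM2 and CFL2 under vehicle held in every alternative fit, while the other 16 named there were lost in at least 1.

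**Figure D4:**
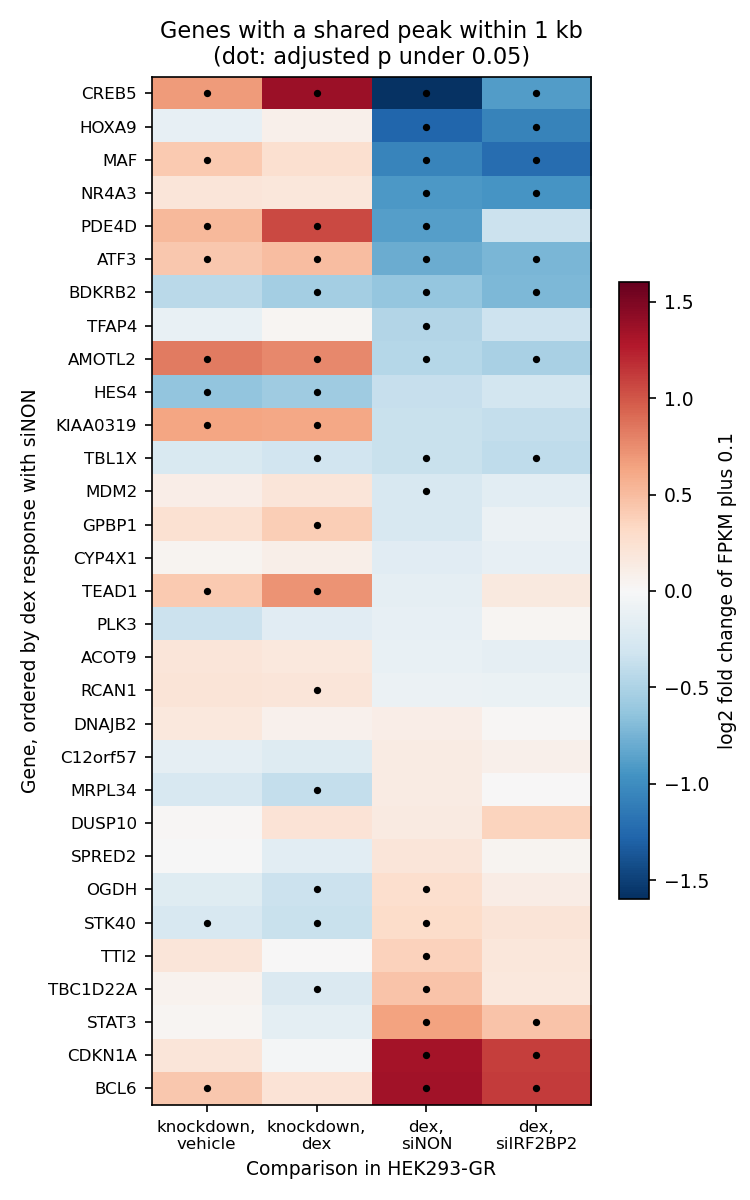
Log2 fold change of FPKM plus 0.1 (colour) in 4 comparisons for the 31 tested genes with a shared IRF2BP2 peak within 1 kb, ordered by the dex response with siNON. Dots mark an adjusted p under 0.05 by limma, which 24 of the 31 genes reached in at least 1 comparison, beside 52.4% of all genes.

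The YAP and TEAD genes with a shared site rose with the knockdown in part. AMOTL2, a target of YAP that binds and restrains it, stood at 2.83, 2.51 and 2.06 FPKM with siNON and 4.34, 4.04 and 4.94 with siIRF2BP2 under vehicle, and at 1.90, 1.66 and 1.71 and 2.82, 3.24 and 3.15 under dex. The libraries of the pools did not overlap, with changes of 0.83 (SE 0.13, adjusted p = 0.000856) and 0.77 (SE 0.13, adjusted p = 0.000551). TEAD1, the DNA-binding partner of YAP, went from 6.43, 6.81 and 8.79 to 9.12, 10.6 and 9.73 FPKM under vehicle and from 6.67, 6.85 and 6.21 to 10.6, 10.8 and 11.3 under dex, changes of 0.42 (SE 0.10, adjusted p = 0.0123) and 0.72 (SE 0.10, adjusted p = 0.000185). PTPN14, a phosphatase that restrains YAP, rose by 0.23 (adjusted p = 0.0337) with vehicle and 0.22 (adjusted p = 0.0195) with dex. FJX1 passed the test under dex only, at 0.33 (adjusted p = 0.0137), against -0.015 (adjusted p = 0.927) under vehicle, and the difference was not called. On the whole list of 26 genes, 14 rose and none fell with the knockdown under vehicle, and 12 rose and 1 fell under dex. The shares over all genes tested were 8.0% higher and 7.48% lower under vehicle, and 22.4% and 17.3% under dex.

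**Figure D5:**
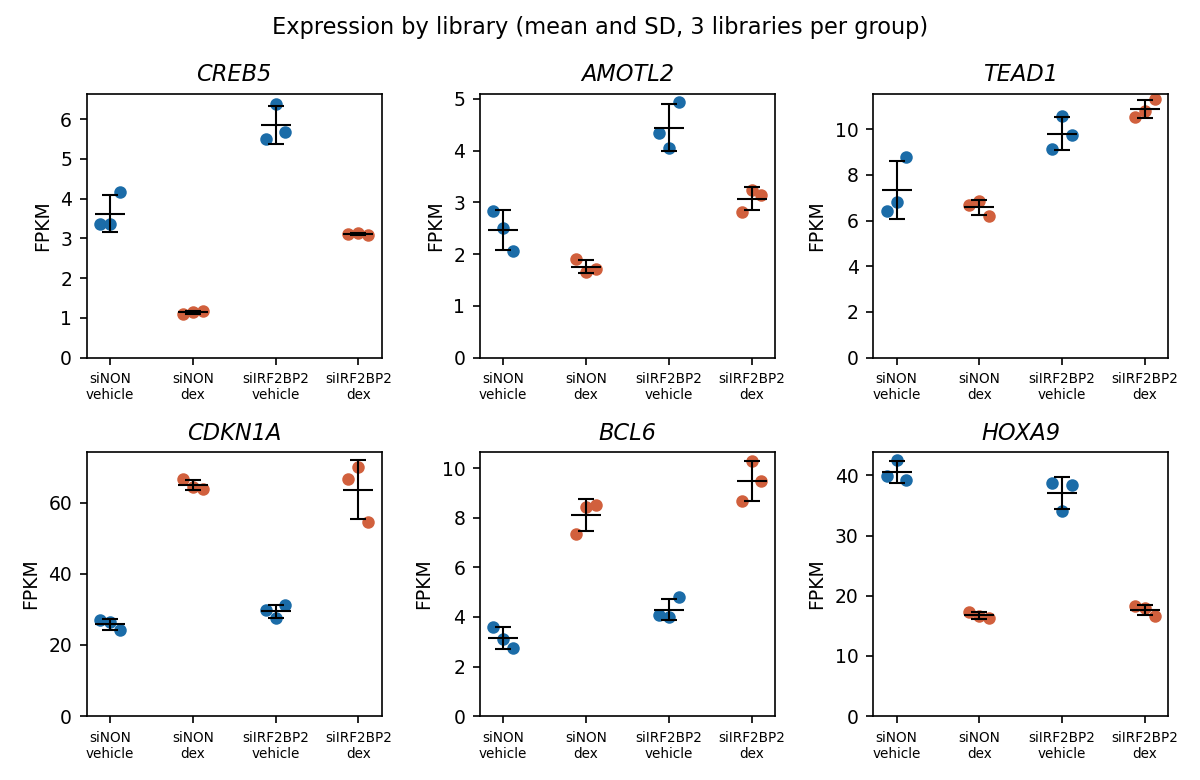
FPKM of 6 genes with a shared IRF2BP2 peak within 1 kb in each HEK293-GR library (points), with mean and SD (bars, n = 3 libraries). CREB5, AMOTL2 and TEAD1 are higher with siIRF2BP2 than with siNON under both treatments, CDKN1A and BCL6 are higher with dex, and HOXA9 is lower with dex.

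Some genes with a promoter site passed no test in HEK293-GR. These were PLK3, DUSP10, SPRED2, DNAJB2, a co-chaperone gene, CYP4X1, ACOT9 and C12orf57, while the other 24 of the 31 passed in at least 1 comparison. RCAN1, with the closest start of the 41, stood at 17.3, 16.9 and 16.8 FPKM with siNON and dex and at 19.7, 20.5 and 18.5 with siIRF2BP2 and dex, a change of 0.20 (adjusted p = 0.0393). Its call was lost when any of 5 single libraries was left out.

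Dex and the knockdown showed no called interaction at the tied genes. None of the 195 was called for the difference of the dex responses, and 20 had an unadjusted p under 0.05 (limma). Among all 15593 genes tested 805 had such a p and 0.0128% were called. The difference with the lowest adjusted p among the genes named above was that of CREB5. The test was made with 3 libraries per group and does not show that the responses were alike.

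In A549, where no IRF2BP2 ChIP was used here, 173 of the 260 tied genes had at least 0.1 FPKM in a pooled column. By the FDR of the authors' deposited table, 28 of the 173 were higher and 22 lower with dex in siNON cells, where 6.31% and 4.50% of all 14097 genes were. With TNF 36 were higher and 21 lower, where 10.9% and 9.79% of all genes were, and of 33 with a site within 1 kb, 12 were higher and 0 lower. In either direction 28.9% of the 173 were called with dex and 32.9% with TNF. The shares were 26.7% and 37.7% for 191 genes of vehicle-only peaks, and 36.5% and 32.4% for 299 genes of dex-only peaks. These responses were thus not particular to shared sites. The knockdown called 76 of the 173 under vehicle (43.9%, all genes 36.8%), 74 with dex (42.8%, 34.2%), 89 with TNF (51.4%, 42.2%) and 83 with dex and TNF together (48.0%, 39.1%). Under vehicle 27 of the 173 were higher and 49 lower (all genes: 2437 and 2756), whereas in HEK293-GR more tied genes rose than fell. With dex 38 were higher and 36 lower (2317 and 2504). With TNF the counts were 40 and 49 (3057 and 2886), and with dex and TNF 43 and 40 (2781 and 2727). Of the genes of vehicle-only and dex-only peaks 48.2% and 48.5% were called under vehicle. In the authors' deposited table IRF2BP2 itself changed by -0.31 (FDR = 0.013) under vehicle and -0.66 (FDR = 2.48e-07) under dex on the log2 scale, a smaller change than in HEK293-GR.

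Several members had another direction in A549 than in HEK293-GR. In the authors' deposited table the knockdown under vehicle changed ATF3 by -1.74 (FDR = 3.59e-70) and AMOTL2 by -0.81 (FDR = 1.9e-17) on the log2 scale, both lower, where they rose in HEK293-GR. CREB5 was at most 0.083 FPKM in the A549 columns of the authors' deposited table, below the 0.1 FPKM asked for in the counts above. The authors' deposited table gives it -2.08 (FDR = 4.87e-57) with the knockdown under vehicle and -2.72 (FDR = 1.78e-44) under dex. CREB5 was thus lower with the knockdown in A549, where it rose in HEK293-GR. HES4 was lower in both lines, at -1.33 (FDR = 1.01e-08) in the authors' deposited table, and KIAA0319 was higher in both, at 0.62 (FDR = 7.25e-09). With dex, AMOTL2 changed by 1.09 (FDR = 1.11e-14) and BCL6 by 1.03 (FDR = 6.48e-15) in the authors' deposited table. BCL6 was thus higher in both lines, while AMOTL2, at -0.46 (adjusted p = 0.0194) in HEK293-GR with siNON, had opposite signs. This HEK293-GR call of AMOTL2 was lost when only the 2 groups compared were fitted. It was also lost without siNON vehicle replicate 1, siNON dex replicate 2 or siNON dex replicate 3. HMOX1, at -1.17 (FDR = 3.69e-13), and ID3, at -0.63 (FDR = 0.000326) in the authors' deposited table, were lower with dex in both lines. With TNF the authors' deposited table gives BDKRB2 1.68 (FDR = 1.7e-45), DUSP10 1.13 (FDR = 1.75e-24), RCAN1 0.68 (FDR = 5.1e-05), STAT3 0.54 (FDR = 6.14e-08) and MDM2 0.53 (FDR = 3.25e-05). DUSP10 and RCAN1, both with a promoter site, were picked for TNF after their values were seen. The lines were not compared by a test, since the A549 columns are pooled.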

How the data were processed

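IRF2BP2 ChIP-seq peaks and RNA-seq of HEK293-GR and A549 were used as deposited. The peak lists, 1 per condition, hold a score of 1 for every peak, as deposited by the authors. The HEK293-GR table holds FPKM per library, computed by the authors, and A549 has FPKM of pooled replicates. Log2 fold changes and the p-value columns (FDR) of the A549 and HEK293-GR tables are the authors' and were deposited with them. The submitters' processing notes name Bowtie (0.12.9), Bowtie2, TopHat2, Trimmomatic (0.33), FastQC, bedtools, edgeR and HOMER (4.10.3). How peak replicates were combined is not given in the sources used here.

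Peaks overlapping by at least 1 base were shared. Reads were recovered from FPKM, transcript length and depth, and genes with at least 10 reads in 3 or more libraries (15593) were kept. Limma 3.58.1 (R 4.3.3) was fitted to log2(FPKM + 0.1) over 12 libraries and 4 groups (residual degrees of freedom: 8). P-values were adjusted by Benjamini-Hochberg over all genes tested, and 0.05 was the threshold. The fit was tested on simulated counts whose spread was set and not taken from these libraries, so it does not vouch for the call counts. Fold changes on this scale understate the change of low genes. A549 genes were represented by 1 transcript and used from 0.1 FPKM. Named were, per HEK293-GR comparison, up to 6 genes with the largest rise and fall (leaving out symbols of the LINC, LOC, MIR, SNOR, SNHG and antisense kinds) among called genes with no overlap between libraries and at least 1 FPKM, genes with 3 or more shared sites, and list members near a shared site. The members and lists were chosen with earlier results of these data known. Alternatives were other scaling, filter, pseudocount, groups, replicate block, distance and each library left out. A widest-peak rule was void, since all peaks of a list have 1 width. Python 3.11.15 with pandas 2.3.3 and numpy 2.4.6 was used. Results that need items withheld for evaluation are not reported here.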

Additional observations from a re-analysis of the deposited data

How the results depend on the processing

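With nearest genes taken within 1 kb the calls were 10 for the knockdown under vehicle, 15 under dex, 18 for dex with siNON and 11 with siIRF2BP2, and at any distance they were 70, 146, 123 and 74, beside 40, 89, 76 and 47 within 50 kb. These settings change how many genes are counted. For the knockdown under vehicle, fitting only its 2 groups gave 6 calls and the authors' deposited FDR 19 (the cause was not tested). Leaving out each library in turn gave 25 to 69 calls for the knockdown under vehicle, 59 to 96 under dex, 53 to 82 for dex with siNON and 41 to 56 with siIRF2BP2, and 0 for the difference of the responses each time. Shared sites within 5 kb of a start made up 16.9%, beside 8.47% within 1 kb. With a replicate block the calls were 34, 78, 65 and 44. Replicate numbers did not pair the samples: deviations of same-numbered libraries correlated between -0.377 and 0.261, over 0.1 in 4 of 18 pairs, and 2 of 12 libraries correlated best with their own number. Of 93 calls of named genes 58 held in every alternative (5 of 21 for the knockdown under vehicle, 15 of 25 under dex, 21 of 27 for dex with siNON, 17 of 20 with siIRF2BP2), and none reversed. A split by peak width was not run because widths are equal, nor the authors' FDR or a 2-group fit for the difference of the responses. With 3 libraries per group small changes cannot be told from the spread, and a peak list without heights gives no precision for single sites.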
